A study of Mus musculus with 72 samples.

Results

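Skeletal muscle of stimulated Klotho heterozygous mice was set against muscle of unstimulated wild-type (WT) mice, to ask whether electrical stimulation brought the heterozygous muscle nearer to the resting WT profile. The comparison took its members from the labels of tissue, genotype and treatment: 12 KlHET NMES and 6 WT control libraries, 18 of the 36 muscle libraries in a series of 72. Another 12 muscle libraries from KlHET control mice and 6 from WT NMES mice were used side by side. The study states a smaller number of KlHET control mice than the labels give, without naming the mouse, and all labelled libraries were used. Each library came from a separate mouse. KlHET mice carry 1 disrupted copy of Klotho (Kl), in a stock that the methods of the study give as a mix of C57BL/6 and 129S5, and the sources used here do not state whether the WT mice were their littermates. In neuromuscular electrical stimulation (NMES) an applied current makes muscle contract. NMES mice received 9 mA at both hind legs under 2.5% isoflurane, as 2 sets of 10 stimulations on each leg in each of 5 sessions, and control mice of both genotypes received 15 min of isoflurane alone. All mice were 2 months old, and muscle was taken 24 h after the last session, from the tibialis anterior with the extensor digitorum longus according to the methods of the study. KlHET NMES and WT control mice differed in genotype and stimulation at once. All WT and all KlHET animals also bore identifiers of different series. Genotype and cohort therefore cannot be told apart in any comparison of KlHET with WT mice. By their labels, KlHET NMES and KlHET control mice differed in stimulation only.

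Klotho is a membrane protein and circulating hormone that serves as co-receptor for fibroblast growth factor 23 and is known for the early ageing of mice that lack it. The tibialis anterior and extensor digitorum longus are fast muscles that draw much of their energy for short contractions from glycolysis, whereas endurance contraction relies on the mitochondrial respiratory chain, whose subunits are made in part from nuclear and in part from mitochondrial genes. Repeated contraction is known to alter the genes of the sarcomere, of the attachment of fibres to the matrix and of glucose use.

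Depth ranged from 14.84 to 24.45 M reads per muscle library, with 13505 genes tested. Levels are given as CPM, reads of a gene per M reads after scaling of the libraries by TMM. Xist exceeded Y-linked expression in 8 of 12 KlHET NMES, 7 of 12 KlHET control, 3 of 6 WT NMES and 3 of 6 WT control libraries. Kl was not a row of the muscle table and was not analysed here in muscle. In brain Kl averaged 5.68 ± 6.13 CPM in KlHET NMES mice (SD, n = 12) and 3.43 ± 1.88 CPM in WT control mice (SD, n = 6; exact permutation test, 2-sided, p = 0.477), so this gene did not check the genotype labels. Fast fibre markers, among them Myh4 (fast myosin heavy chain) and Atp2a1 (calcium pump of fast fibres), summed to 98280 to 153900 CPM in KlHET NMES and 98050 to 111100 CPM in WT control libraries, against 1836 to 4052 CPM and 1907 to 3631 CPM for slow fibre markers, so fast fibre markers were far above slow fibre markers in tissue labelled only as muscle. Mitochondrial genes took 6.39% of the reads of KlHET NMES replicate 9 and 18.6% of those of WT control replicate 3, the lowest of their groups, against 24.1% ± 6.28 (SD, n = 12) and 27.5% ± 5.20 (SD, n = 6) over the KlHET NMES and WT control libraries. Expression also followed transcript length differently. The slope of a library's log2 expression on transcript length, per doubling of length, was 0.0243 ± 0.0591 in KlHET NMES (SD, n = 12), 0.0463 ± 0.0421 in KlHET control (SD, n = 12), -0.0899 ± 0.0299 in WT NMES (SD, n = 6) and -0.0513 ± 0.0361 in WT control libraries (SD, n = 6). All 12 WT slopes were below 0, as were 4 of 12 in KlHET NMES and 2 of 12 in KlHET control mice. The plot of library features shows both measures, and the main counts and some single genes are also given below with each library's length trend removed.

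**Figure D1:**
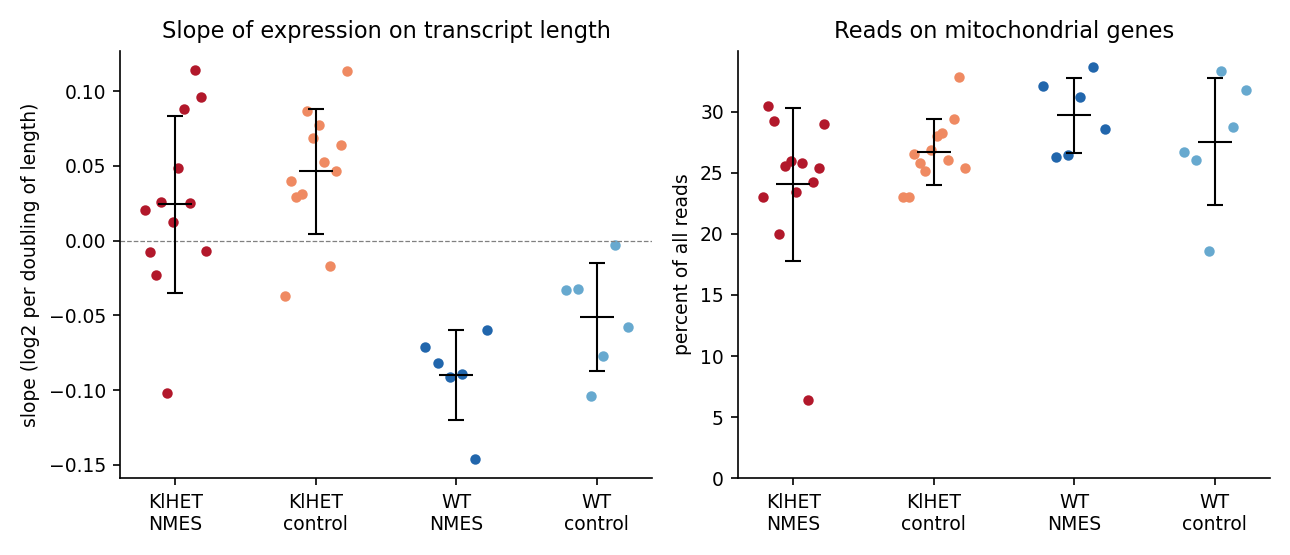
Features of the 36 muscle libraries by group (points, single libraries; bars, mean and SD). Left, slope of log2 expression on transcript length in log2 per doubling of length, below 0 in all 12 WT libraries; right, percent of all reads on mitochondrial genes, with KlHET NMES replicate 9 at 6.39%.

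Stimulated KlHET muscle differed from resting WT muscle in 864 genes (6.4% of those tested; limma, adjusted p below 0.05). Of these, 434 were higher (3.21%) and 430 lower (3.18%) in KlHET NMES mice. Agt, the angiotensin precursor, Igdcc4, a receptor-like membrane protein, and Abcc1, an export pump, were among the 12 higher genes with the smallest p, as were Plxna4 (a semaphorin receptor), Myom2 (an M-band protein of the sarcomere), Itga7 (the laminin receptor subunit of muscle fibres), Atp9a (a lipid flippase), Lamb2 (a laminin chain of the basement membrane), Car14 (a membrane carbonic anhydrase), Golga3 (a Golgi protein), Dnmt3a (a DNA methyltransferase) and the pseudogene Tmem181b-ps. The 12 lower genes were Tmem267, Actc1 (cardiac α-actin), Rpl30 (a ribosomal protein), the histone gene H2ac19, Cox8b and Cox6c (cytochrome c oxidase subunits), Drap1 (a transcriptional corepressor), the noncoding RNA Snhg6, Tafa5, Aspn (a small matrix proteoglycan), Mat2b (a methionine adenosyltransferase subunit) and Mcfd2 (a cargo receptor of the secretory pathway). All 24 passed the threshold under every alternative run for them, with adjusted p from 3.27e-13 to 0.0316. There were 31 alternatives for each gene except H2ac19 and Tafa5, which had 30. The 2 groups did not overlap at all in 24 higher genes (0.178% of those tested) and 27 lower genes (0.2%).

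Before the length trend was removed, unstimulated KlHET muscle lay about as many genes from the same WT controls. KlHET control mice differed from WT control mice in 810 genes (6.0%), of which 350 were higher (2.59%) and 460 lower (3.41%). The direct comparison of KlHET NMES with KlHET control mice called 87 genes (0.644%), 65 higher (0.481%) and 22 lower (0.163%), and 42 to 153 genes with a single library left out. In WT mice NMES called 2 genes against control, both higher (0.0148%), and 1200 genes at an unadjusted p under 0.05. No gene passed for a difference between the genotypes in the response to NMES (limma interaction term, 475 genes at an unadjusted p under 0.05), so responses that passed in KlHET and not in WT mice were not shown to differ. The comparisons with WT control share its 6 libraries, and both comparisons of KlHET control mice share its 12 libraries, so their values are set side by side and only the direct comparison tests a difference between stimulated and unstimulated KlHET muscle.

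Scaling, the length trend and single libraries moved these counts. With the length trend removed, 478 genes were called for KlHET NMES and 262 for KlHET control mice against WT control. Genes higher in KlHET NMES than in WT control mice had a median transcript length of 5462 bases and lower genes 2012 bases. For KlHET control mice these medians were 5981 and 1548 bases, against 3368 bases over the tested genes with a known length. With total-count scaling in place of TMM, 561 genes were higher and 132 lower in KlHET NMES than in WT control mice (81.0% higher, against 50.2% with TMM), and 751 were higher and 102 lower in KlHET control than in WT control mice (88.0% against 43.2%), with the median difference of all genes at 0.05 and 0.08 log2. Between the KlHET groups 17 were higher and 19 lower (47.2% higher, against 74.7% with TMM). Without WT control replicate 3, the library of low mitochondrial share, 288 genes remained called for KlHET NMES and 121 for KlHET control mice.

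Whole-profile distance put stimulated KlHET libraries farther from resting WT muscle than unstimulated ones. The distance of a library was the root mean square, over all 13505 genes, of its log2 difference from the WT control mean. It was 0.422 ± 0.0471 in KlHET NMES (SD, n = 12; 0.341 to 0.508), 0.378 ± 0.03 in KlHET control (SD, n = 12; 0.336 to 0.418) and 0.341 ± 0.043 in WT NMES libraries (SD, n = 6), while each WT control library lay 0.321 ± 0.0414 (SD, n = 6) from the mean of the other 5. KlHET NMES libraries were thus 0.0446 farther from the WT controls than KlHET control libraries (permutation test, 2-sided, p = 0.0109), with overlap between the groups. The difference was 0.0484 (permutation p = 0.00318) with the length trend removed, 0.0458 (permutation p = 0.00498) without both libraries of low mitochondrial share and 0.0465 (permutation p = 0.00564) against WT controls of the same sex. It was 0.0243 (permutation p = 0.0575) as a median absolute difference over genes.

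**Figure D2:**
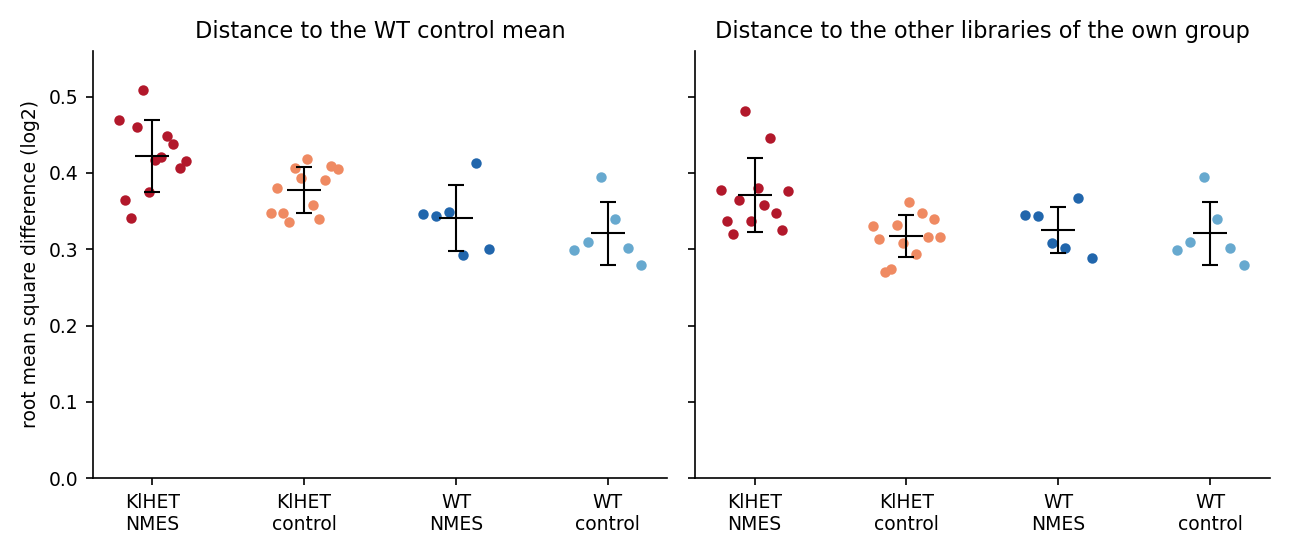
Root mean square log2 difference of each muscle library over 13505 genes (points, single libraries; bars, mean and SD). Left, distance to the WT control mean, where KlHET NMES libraries averaged 0.422 and KlHET control libraries 0.378; right, distance to the other libraries of the own group, 0.371 and 0.317.

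Part of a library's distance is its own departure from its group, and the stimulated KlHET group was the more scattered. A KlHET NMES library lay 0.371 ± 0.0484 from the mean of the other KlHET NMES libraries (SD, n = 12) and a KlHET control library 0.317 ± 0.0279 from that of the other KlHET controls (SD, n = 12), a difference of 0.0538 (permutation test, 2-sided, p = 0.0012). Libraries of a group share the references of these distances, which were not recomputed in the permutations, so this p is only a rough guide. The group means themselves were similarly far from WT control: the root mean square difference, after subtraction of the sampling error expected from the spread, was 0.194 for KlHET NMES and 0.19 for KlHET control. KlHET NMES replicate 5 lay farthest from the WT controls (0.508) and was the highest library of its group for Myh7 (slow myosin heavy chain, 302.2 CPM). Against the mean of the WT NMES libraries, the difference between KlHET NMES and KlHET control was 0.00375 (permutation p = 0.862). By whole-profile distance, then, stimulated KlHET muscle was not nearer to resting WT muscle, and single genes and gene groups divided into those nearer to it, those farther from it and those where both KlHET groups stood alike.

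Genes that were higher in stimulated KlHET muscle than in both control groups included Agt, the genes Myom2, Xirp2 and Itga7 of the contractile apparatus and its attachments, and the carbonic anhydrase Car14. Agt (chr8:124556587-124569706, GRCm38) had a lowest, median and highest level of 14.9, 20.4 and 29.2 CPM in KlHET NMES libraries, against 5.82, 8.43 and 9.65 CPM in WT control libraries. Every KlHET NMES library was above every WT control library, and above every KlHET control library as well, where Agt ran from 6.19 to 11.7 CPM with a median of 10.3. The difference was 1.36 ± 0.16 log2 (SE, adjusted p = 2.87e-06) from WT control and 1.19 ± 0.13 log2 (SE, adjusted p = 4.7e-07) from KlHET control, while KlHET control differed from WT control by 0.17 log2 (adjusted p = 0.551). In WT mice Agt rose by 1.07 ± 0.18 log2 with NMES (SE, adjusted p = 0.0063), 1 of the 2 genes called there. The other was Aimp2, a scaffold of the aminoacyl-tRNA synthetase complex, higher by 1.06 ± 0.16 log2 (SE, adjusted p = 0.000964) in WT NMES than in WT control mice and by 0.48 ± 0.14 log2 (SE, adjusted p = 0.0298) in KlHET NMES than in WT control mice. Aimp2 was also 0.57 ± 0.11 log2 higher in KlHET NMES than in KlHET control mice (SE, adjusted p = 0.00791).

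Myom2 (chr8:15057653-15133420) showed the same order among sarcomere genes. It ran from 1034 to 1995 CPM with a median of 1305 in KlHET NMES libraries, against 654 to 946.7 CPM with a median of 830.9 in WT control libraries, and the groups did not overlap. KlHET NMES exceeded WT control by 0.72 ± 0.11 log2 (SE, adjusted p = 0.000289) and KlHET control, at 703.5 to 1187 CPM, by 0.64 ± 0.09 log2 (SE, adjusted p = 8.92e-05). Xirp2, an actin-binding repeat protein of the sarcomere and intercalated disc, likewise did not overlap, with 1557 to 2461 CPM (median 1847) in KlHET NMES and 1182 to 1474 CPM (median 1366) in WT control libraries, a difference of 0.48 ± 0.09 log2 (SE, adjusted p = 0.00191). With the length trend removed the adjusted p of Xirp2, a transcript of 11979 bases, was 0.0534 and its difference 0.29 log2. Itga7 ran from 91.2 to 144.5 CPM (median 120.1) in KlHET NMES and from 76.2 to 97.4 CPM (median 80.6) in WT control libraries, so that 11 of 12 stimulated libraries lay above every WT control. Its difference of 0.50 ± 0.08 log2 (SE, adjusted p = 0.000392) compares with 0.02 log2 (adjusted p = 0.92) for KlHET control against WT control. In WT NMES libraries Itga7 ran from 95.55 to 129.0 CPM, Myom2 from 770.2 to 1070 CPM and Xirp2 from 1324 to 1727 CPM.

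Car14 stood at 49.7 to 75.3 CPM (median 61.7) in KlHET NMES and at 30.1 to 52.3 CPM (median 35.8) in WT control libraries, 0.66 ± 0.11 log2 higher (SE, adjusted p = 0.000845). Car9, another membrane carbonic anhydrase, was low throughout, with 1.28 to 3.80 CPM (median 2.14) in KlHET NMES and 0.56 to 1.02 CPM (median 0.816) in WT control libraries, yet did not overlap (1.05 ± 0.19 log2, SE, adjusted p = 0.00121). Of 13 carbonic anhydrases tested, 2 were higher and 1, the capillary enzyme Car4, was lower in KlHET NMES than in WT control mice, where Car4 ran from 7.19 to 16.4 CPM (median 10.0) against 13.7 to 21.1 CPM (median 19.5). Dlk1, a Notch-related protein of growing muscle and fat, ran from 1.08 to 11.1 CPM (median 2.84) against 0.373 to 1.21 CPM (median 0.736) in WT control libraries. It was 1.63 ± 0.28 log2 higher than in WT control (SE, adjusted p = 0.000881) and 1.30 ± 0.23 log2 higher than in KlHET control mice (SE, adjusted p = 0.00194). Ifi30, a lysosomal thiol reductase of antigen processing, was 0.64 ± 0.16 log2 higher than in WT control mice (SE, adjusted p = 0.014), at 6.91 to 18.6 CPM (median 10.4) against 5.50 to 8.78 CPM (median 6.21). The other called gene of the 22 in the list antigen presentation went the other way: B2m, the light chain of class I molecules, was 0.67 ± 0.19 log2 lower (SE, adjusted p = 0.0312, and 0.00707 to 0.129 over all alternatives), and the list had a median of -0.30 log2. Of 27 interferon-stimulated genes none was higher and 2 were lower, Ifit3b and Rsad2, and neither passed without WT control replicate 3. Over all tested genes, 3.21% were higher and 3.18% lower in KlHET NMES than in WT control mice.

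Other genes were lower in stimulated KlHET muscle than in both control groups. Actc1, the cardiac α-actin of developing and regenerating muscle, ran from 77.6 to 232.1 CPM (median 112.1) in KlHET NMES, against 228.8 to 480.9 CPM (median 320.0) in WT control libraries, and 11 of 12 stimulated libraries lay below every WT control. Its difference was -1.52 ± 0.25 log2 (SE, adjusted p = 0.000587) from WT control and -0.88 ± 0.20 log2 (SE, adjusted p = 0.0271) from KlHET control, where it ran from 113.2 to 339.5 CPM. Ampd1, the AMP deaminase of contracting muscle, ran from 510.6 to 880.9 CPM (median 642.4) against 778.1 to 1015 CPM (median 925.6) in WT control libraries, a difference of -0.50 ± 0.10 log2 (SE, adjusted p = 0.00247). KlHET control libraries stood at the WT control level, with a median of 968.4 CPM and a difference of 0.01 log2 (adjusted p = 0.974). In WT NMES libraries Ampd1 ran from 574.6 to 766.2 CPM, below every WT control library, and Actc1 from 80.12 to 272.3 CPM. Mylk2, the myosin light chain kinase of skeletal muscle, was 0.45 ± 0.11 log2 lower than in WT control mice (SE, adjusted p = 0.0166). Tpx2, a spindle assembly factor, ran from 1.10 to 3.22 CPM (median 1.71) against 2.22 to 5.75 CPM (median 4.00) in WT control libraries, lower by 0.93 ± 0.20 log2 (SE, adjusted p = 0.00431), and Orc4, a subunit of the origin recognition complex, was 0.33 ± 0.07 log2 lower (SE, adjusted p = 0.00688). For Actc1, Ampd1, Mylk2, Tpx2 and Orc4 the direct comparison of the KlHET groups also passed, with adjusted p of 0.0271, 0.000277, 0.0471, 0.0158 and 0.00664.

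**Figure D3:**
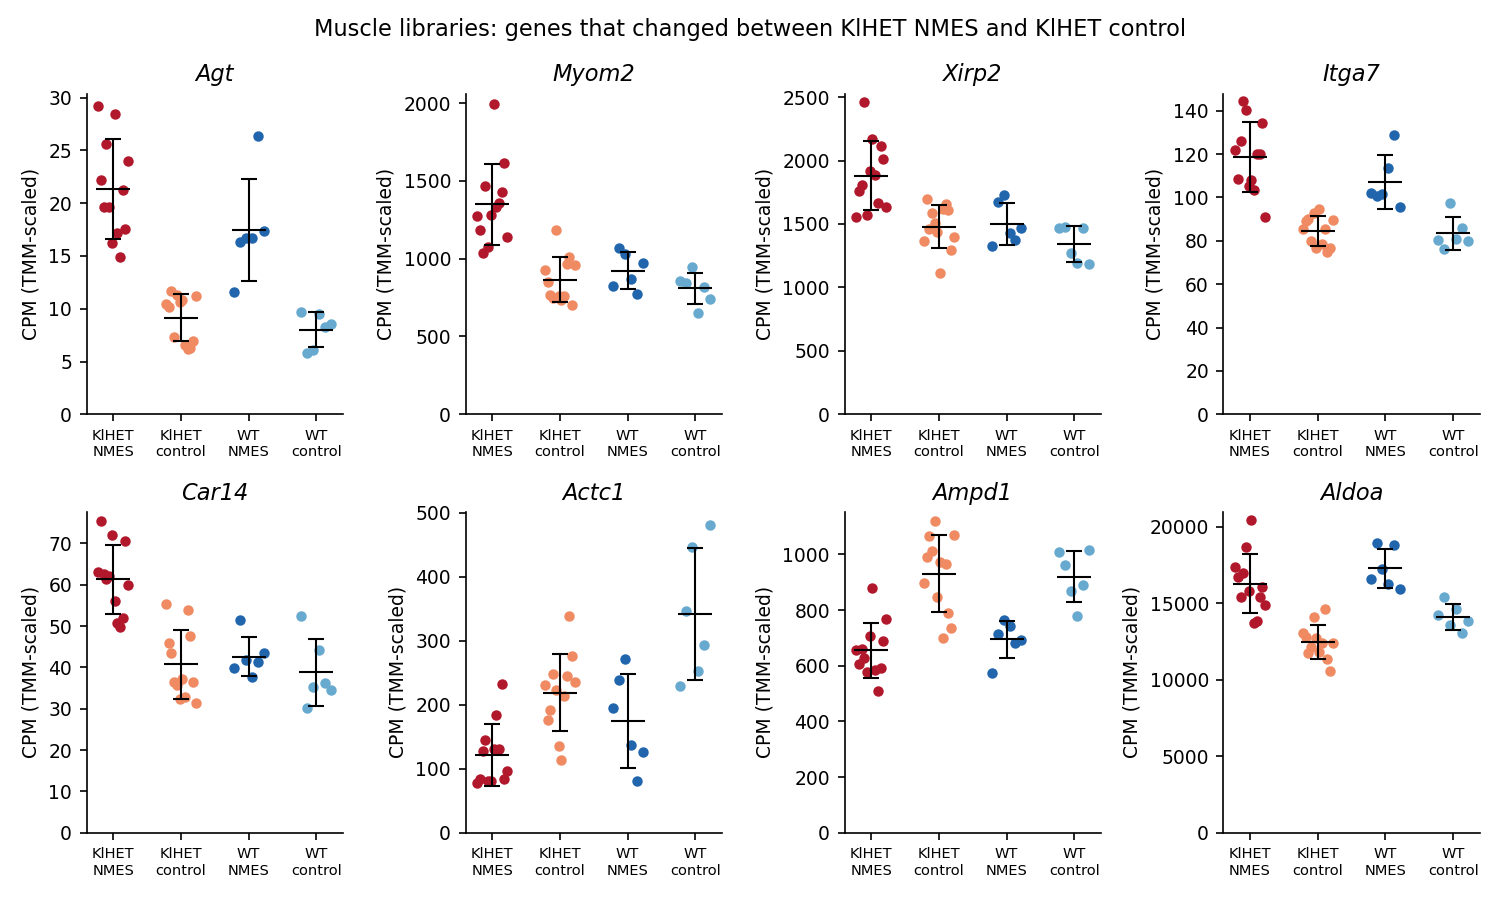
TMM-scaled CPM of 8 genes called between KlHET NMES and KlHET control mice, on linear axes from 0 (points, single libraries; bars, mean and SD). Agt, Myom2, Xirp2, Itga7 and Car14 lie above and Actc1 and Ampd1 below both control groups in the mean of KlHET NMES libraries, while Aldoa (KlHET NMES 13720 to 20470 CPM) lies above KlHET control (10570 to 14600 CPM).

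Sarcomere genes were called against WT control in stimulated and not in unstimulated KlHET muscle, a difference of counts that was not tested. Of 32 genes of the list sarcomere organization and titin cap, 7 were higher and 2 lower in KlHET NMES than in WT control mice, with a median difference of 0.25 log2 against 0.01 log2 over all tested genes, while none passed between KlHET control and WT control (median 0.03 log2). Of all tested genes, 3.21% were higher and 3.18% lower in KlHET NMES than in WT control mice. The direct comparison called 4 higher and 2 lower (median 0.19 log2), against 0.481% and 0.163% of all tested genes. Besides Myom2 and Xirp2, the higher genes included Neb, the ruler of the thin filament (0.45 ± 0.12 log2, SE, adjusted p = 0.0175) and Ttn, the spring that spans the sarcomere. Ttn ran from 3686 to 8721 CPM (median 5651) in KlHET NMES and from 2770 to 4714 CPM (median 3872) in WT control libraries (0.54 ± 0.15 log2, SE, adjusted p = 0.0243). Both transcripts are long, and with the length trend removed only 1 sarcomere gene, Myom2, stayed higher and 2 lower, with adjusted p of 0.385 for Neb and 0.801 for Ttn. The direct comparison kept 4 higher and 2 lower with the length trend removed, and 1 and 2 with total-count scaling. The mean level of the list relative to the WT control mean ran from 0.00 to 0.56 log2 (median 0.24) in KlHET NMES, from -0.24 to 0.49 (median 0.04) in KlHET control and from -0.26 to 0.23 (median 0.02) in WT control libraries.

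Excitation-contraction coupling genes followed with 7 of 21 higher and none lower in KlHET NMES than in WT control mice (median 0.12 log2). Of all tested genes, 3.21% were higher and 3.18% lower in that comparison. Ryr1, the calcium release channel, ran from 1335 to 2646 CPM (median 1761) against 967 to 1542 CPM (median 1211) in WT control libraries, and Cacna1s, the voltage sensor that opens it, from 524.9 to 910.6 CPM (median 648.7) against 407.4 to 645.2 CPM (median 496.1). Their differences were 0.57 ± 0.14 log2 (SE, adjusted p = 0.0113) and 0.50 ± 0.12 log2 (SE, adjusted p = 0.00893). None of the excitation-contraction coupling genes passed between KlHET control and WT control mice, although 5 were higher there with total-count scaling. With the length trend removed 2 were higher in KlHET NMES than in WT control mice, and without WT control replicate 3 the count was 3.

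Some genes that tie the fibre to its matrix were higher in the KlHET groups. Of 25 genes in the list integrins and adhesion, 8 were higher in KlHET NMES than in WT control mice (median 0.24 log2) and 3 in KlHET control than in WT control mice (median 0.28 log2), against 3 and 0 with the length trend removed and 4 and 0 without WT control replicate 3. Vcl, which links integrins to actin, ran from 74.2 to 128.5 CPM (median 102.1) in KlHET NMES and from 61.5 to 75.8 CPM (median 66.9) in WT control libraries, 0.54 ± 0.10 log2 higher (SE, adjusted p = 0.00191). Over all tested genes, 3.21% were higher in KlHET NMES and 2.59% in KlHET control mice than in WT control mice. Of 39 other matrix and basement membrane genes, 2 were higher in KlHET NMES, near that share (median 0.12 log2), and 8 in KlHET control mice (median 0.32 log2), and none passed between the KlHET groups (median -0.18 log2). Without WT control replicate 3 these counts were 1 and 1, and with the length trend removed 1 and 2. The 2 were Lamb2 and Lama2, the laminin chains of fibre and junction: Lamb2 ran from 163.9 to 274.4 CPM (median 225.5) in KlHET NMES and from 134.1 to 168.6 CPM (median 147.6) in WT control libraries (0.54 ± 0.09 log2, SE, adjusted p = 0.000479). Among 25 fibrillar and network collagens no gene passed in either comparison, with medians of 0.03 log2 for KlHET NMES and 0.23 log2 for KlHET control, and the median for KlHET NMES was -0.06 log2 with the length trend removed. Dmd, the cytoskeletal anchor dystrophin, was 0.55 ± 0.14 log2 higher in KlHET NMES than in WT control mice (SE, adjusted p = 0.0177), 1 of 2 genes higher among 20 of the dystrophin complex, and its adjusted p was 0.145 with the length trend removed.

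Genes of the respiratory chain were lower in both KlHET groups, and by median less far below WT control after stimulation. Of 73 nuclear respiratory chain subunits tested, 33 were lower and none higher in KlHET NMES than in WT control mice (median -0.29 log2), and 57 were lower and none higher in KlHET control than in WT control mice (median -0.39 log2). Of all tested genes, 3.18% and 3.41% were lower in these comparisons, and 0.481% were higher in KlHET NMES than in KlHET control mice. The direct comparison called 2 subunits higher in KlHET NMES than in KlHET control mice and none lower (median 0.12 log2, 64 of 73 above 0, against a median of -0.01 log2 over all tested genes). The mean level of the list relative to the WT control mean ran from -0.47 to -0.08 log2 (median -0.22) in KlHET NMES, from -0.52 to -0.18 (median -0.38) in KlHET control, from 0.00 to 0.27 (median 0.09) in WT NMES and from -0.08 to 0.11 (median -0.02) in WT control libraries. Of the 12 KlHET NMES libraries, 11 thus lay below every WT control, and replicate 5 alone reached the lowest of them. The subunits have short transcripts, with a median of 992 bases against 3368 over the tested genes with a known length, and with the length trend removed 11 were lower in KlHET NMES (median -0.13 log2) and 27 in KlHET control mice (median -0.22 log2). Without WT control replicate 3, 12 and 39 were lower.

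The 2 subunits that passed between the KlHET groups were Ndufv1, which carries the NADH site of complex I, and Atp5mc1, a c-ring subunit of ATP synthase. Both passed narrowly. Over all genes this comparison called 87, but 36 with total-count scaling, 28 in a fit of the 2 groups alone and 114 with the length trend removed. Ndufv1 ran from 329.7 to 525.7 CPM (median 397.8) in KlHET NMES and from 290.1 to 370.3 CPM (median 342.2) in KlHET control libraries, against 372.7 to 430.6 CPM (median 395.5) in WT control libraries. It was thus 0.26 ± 0.06 log2 higher with stimulation (SE, adjusted p = 0.0433), 0.26 log2 lower in KlHET control than in WT control mice (adjusted p = 0.0431) and 0.01 ± 0.08 log2 from WT control in KlHET NMES mice (SE, adjusted p = 0.977). Atp5mc1 ran from 58.9 to 84.2 CPM (median 76.7) in KlHET NMES and from 51.8 to 77.6 CPM (median 58.9) in KlHET control libraries, against 77.6 to 105.4 CPM (median 85.3) in WT control libraries, a difference of 0.29 log2 between the KlHET groups (adjusted p = 0.0482). Pdhb, a subunit of pyruvate dehydrogenase, took the same order, with medians of 298.5 CPM in KlHET NMES, 246.7 CPM in KlHET control and 357.6 CPM in WT control libraries (0.28 log2 between the KlHET groups, adjusted p = 0.0464). Ndufv1 was chosen after its values were seen, as were Ndufb9, Mrpl51, Ttn, Neb, Pnpla2, Ccl28 and the glycolytic genes Gapdh, Pfkm, Pgk1 and Ldha.

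Other subunits were not called between the KlHET groups. Cox8b, the muscle form of a cytochrome c oxidase subunit, ran from 276.9 to 515.1 CPM (median 379.6) in KlHET NMES and from 342.3 to 485.3 CPM (median 389.0) in KlHET control libraries, against 489.6 to 647.2 CPM (median 545.0) in WT control libraries. In KlHET NMES mice 11 of 12 libraries and in KlHET control mice all 12 lay below every WT control, at -0.52 and -0.48 log2 (adjusted p = 0.00121 and 0.00334), and the KlHET groups differed by -0.04 ± 0.08 log2 (SE, adjusted p = 0.862). Cox6c, also of cytochrome c oxidase, gave -0.48 ± 0.09 log2 (SE, adjusted p = 0.00128), with 460 to 673 CPM (median 492.7) against 642 to 819 CPM (median 730.5) in WT control libraries. Against WT control, 3.18% of all tested genes were lower in KlHET NMES and 3.41% in KlHET control mice. Of 77 mitochondrial ribosomal proteins, 10 were lower in KlHET NMES (median -0.17 log2) and 32 in KlHET control mice (median -0.24 log2) than in WT control, against 4 and 8 with the length trend removed and 2 and 1 without WT control replicate 3. Mrpl51, of the large mitochondrial subunit, was the member that passed between the KlHET groups, at 0.33 ± 0.08 log2 (SE, adjusted p = 0.0348). The 13 mitochondrially encoded transcripts tested had no gene past the threshold and a median of -0.31 log2 in KlHET NMES against WT control, with none above 0, and KlHET NMES replicate 9 lay 2.58 log2 below the WT control mean. Without that library the median over the mitochondrially encoded transcripts was -0.08 log2, with 3 of 13 above 0.

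Promoters of these genes are shown to set a subunit with a known mitochondrial motif beside one without it and beside the gene with the smallest p. In the 250 bases before the start of each RefSeq gene (GRCm38.p6), the core of the NRF1 motif (GCGCATGC on either strand), the element of nuclear respiratory factor 1, was found in 7 of 61 nuclear respiratory chain subunits with a promoter entry (11.5%), in 8 of 68 mitochondrial ribosomal proteins (11.8%), in 0 of 24 sarcomere genes and in 741 of 32851 promoters in all (2.26%). The half-site of oestrogen-related receptors (AAGGTCA on either strand) was found in 5 of the 61 (8.2%), 2 of the 68 (2.94%), 0 of the 24 and 4.08% of all promoters. The lists held only genes tested in muscle, whereas the promoters in all included genes that were not tested, so the shares are not like for like. Capitals mark the NRF1 core, which in Ndufa11 (a complex I subunit, 0.33 log2 lower in KlHET NMES than in WT control mice, adjusted p = 0.021) overlaps on both strands, whereas Cox8b and Agt held neither motif in this window. Each sequence is on the gene's own strand, at chr17:56717512-56717761 (plus strand), chr7:140900447-140900696 (minus strand) and chr8:124569707-124569956 (minus strand).
Ndufa11: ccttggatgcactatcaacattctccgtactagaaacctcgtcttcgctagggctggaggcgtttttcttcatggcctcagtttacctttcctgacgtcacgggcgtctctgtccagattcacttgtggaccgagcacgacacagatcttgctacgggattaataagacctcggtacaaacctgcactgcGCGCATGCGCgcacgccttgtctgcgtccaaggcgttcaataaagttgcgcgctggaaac
Cox8b: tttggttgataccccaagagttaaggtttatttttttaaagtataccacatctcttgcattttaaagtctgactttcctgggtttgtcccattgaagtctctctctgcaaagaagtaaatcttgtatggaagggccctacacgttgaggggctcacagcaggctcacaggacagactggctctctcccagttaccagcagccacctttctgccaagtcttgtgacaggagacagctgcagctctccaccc
Agt: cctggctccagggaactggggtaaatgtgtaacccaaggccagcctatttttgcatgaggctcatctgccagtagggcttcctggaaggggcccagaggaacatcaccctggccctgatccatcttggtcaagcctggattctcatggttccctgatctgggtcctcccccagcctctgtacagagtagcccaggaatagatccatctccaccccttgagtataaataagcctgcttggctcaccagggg

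Some glycolysis genes were higher in stimulated than in unstimulated KlHET muscle. Of 24 genes in the glycolysis list none passed between KlHET NMES and WT control mice (median 0.10 log2), 1 was higher and 5 lower in KlHET control than in WT control mice (median -0.15 log2), and 5 were higher and none lower in KlHET NMES than in KlHET control mice (median 0.15 log2). Of all tested genes, 2.59% were higher and 3.41% lower in KlHET control than in WT control mice. Between the KlHET groups 0.481% were higher and 0.163% lower. The mean level of the glycolysis list relative to the WT control mean ran from 0.06 to 0.14 log2 in WT NMES libraries. It ran from -0.07 to 0.05 log2 in WT control and from -0.12 to 0.27 log2 in KlHET NMES libraries. Aldoa, the muscle aldolase, ran from 13720 to 20470 CPM (median 15950) in KlHET NMES and from 10570 to 14600 CPM (median 12390) in KlHET control libraries, against 13030 to 15400 CPM (median 14040) in WT control libraries, and was 0.38 ± 0.06 log2 higher with stimulation (SE, adjusted p = 0.000716). In WT NMES libraries Aldoa ran from 15930 to 18920 CPM, above every WT control library. Ldha, the muscle lactate dehydrogenase, ran from 2394 to 3300 CPM (median 2756) in KlHET NMES, 2093 to 2701 CPM (median 2326) in KlHET control and 2474 to 3235 CPM (median 2731) in WT control libraries, at 0.02 ± 0.07 log2 from WT control after stimulation (SE, adjusted p = 0.893). Pfkm, the phosphofructokinase that commits sugar to glycolysis, Pgk1, the phosphoglycerate kinase, and Gapdh were the other members that passed, higher by 0.29, 0.34 and 0.45 log2 in KlHET NMES than in KlHET control mice (adjusted p = 0.0141, 0.0271 and 0.00698). Gapdh shares its sequence with many pseudogene copies, so that its 82.5 to 192.6 CPM in KlHET NMES libraries are uncertain. Aldoa was 0.20 log2 above WT control in KlHET NMES mice (adjusted p = 0.109, and 0.0315 to 0.259 over all alternatives) and passed with the length trend removed (0.28 log2, adjusted p = 0.0315) and with total-count scaling (0.25 log2, adjusted p = 0.0491). With total-count scaling 2 glycolysis genes passed between the KlHET groups, and with the length trend removed 5. The 5 genes lower in KlHET control than in WT control mice numbered 0 without WT control replicate 3, with the length trend removed and with total-count scaling.

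**Figure D4:**
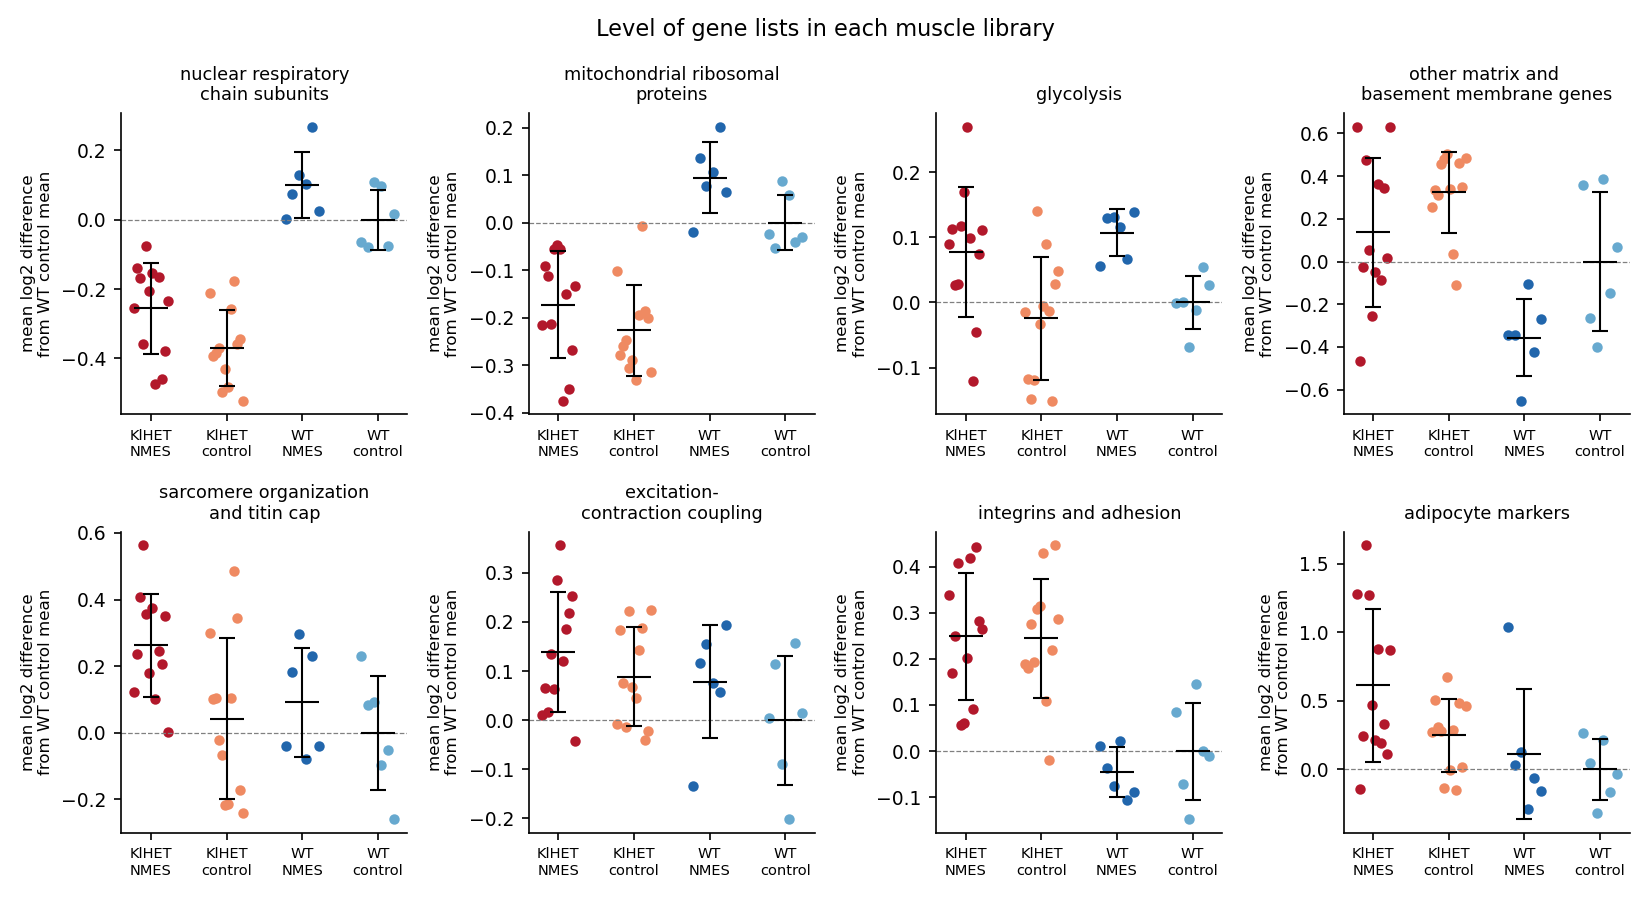
Mean log2 difference from the WT control mean over the genes of 8 lists, per muscle library (points, single libraries; bars, mean and SD; dashed line, WT control mean). Nuclear respiratory chain subunits had a median of -0.22 log2 in KlHET NMES and -0.38 in KlHET control libraries, and sarcomere organization and titin cap 0.24 and 0.04.

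A further set of genes was called against WT control in KlHET NMES mice and not between the KlHET groups. Tmem267 (chr13:119488086-119610459), a membrane protein, ran from 8.96 to 18.1 CPM (median 11.5) in KlHET NMES and from 6.05 to 19.2 CPM (median 12.7) in KlHET control libraries, against 22.8 to 37.9 CPM (median 27.6) in WT control libraries. No KlHET library of either group reached a WT control, at -1.15 ± 0.18 log2 (SE, adjusted p = 0.000392) and -1.21 ± 0.18 log2 (SE, adjusted p = 0.00117), and the KlHET groups differed by 0.06 ± 0.15 log2 (SE, adjusted p = 0.896). Its neighbour Nnt (chr13:119335527-119409257), the mitochondrial transhydrogenase that is defective in some C57BL/6 substrains, went the other way, with 14.1 to 116.3 CPM (median 61.8) in KlHET NMES, 31.5 to 99.0 CPM (median 52.5) in KlHET control and 15.6 to 28.4 CPM (median 21.99) in WT control libraries. Nnt was 1.30 ± 0.30 log2 higher in KlHET NMES than in WT control mice (SE, adjusted p = 0.00868), with 10 of 12 libraries above every WT control and 1 below. Nnt in KlHET NMES replicates 8 and 11, at 14.11 and 28.31 CPM, did not exceed the highest WT control.

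Igdcc4 (chr9:65101023-65137947) ran from 26.2 to 36.2 CPM (median 30.2) in KlHET NMES and from 23.7 to 31.9 CPM (median 27.9) in KlHET control libraries, against 17.7 to 22.02 CPM (median 20.3) in WT control libraries, so that all 24 KlHET libraries lay above every WT control. It was 0.64 ± 0.08 log2 higher in KlHET NMES than in WT control mice (SE, adjusted p = 6.14e-06). Igdcc4 reached 26.84 CPM in WT NMES libraries and Plxna4 4.70 CPM, so both overlapped between KlHET NMES and WT NMES mice. Plxna4 (chr6:32144543-32588192) gave the same picture at a lower level, with 4.37 to 10.4 CPM (median 7.84) in KlHET NMES, 4.61 to 8.53 CPM (median 6.04) in KlHET control and 2.87 to 4.17 CPM (median 3.57) in WT control libraries (0.94 ± 0.14 log2, SE, adjusted p = 0.00018). Tmem181b-ps (chr17:6439002-6450994) ran from 10.8 to 37.7 CPM (median 18.3) in KlHET NMES against 5.20 to 8.12 CPM (median 6.52) in WT control libraries, but shares sequence with Tmem181a, so that its reads are uncertain. Drap1 (chr19:5422804-5424979) was lower, at 254.8 to 352 CPM (median 317.4) in KlHET NMES and 279.6 to 334.9 CPM (median 310.1) in KlHET control libraries, against 370.3 to 430.5 CPM (median 398.6) in WT control libraries, again with no overlap (-0.37 ± 0.07 log2, SE, adjusted p = 0.00128). Rpl30, Snhg6, Tafa5 and Mat2b were lower and Dnmt3a was higher without overlap between KlHET NMES and WT control libraries, by -0.91, -0.65, -0.78, -0.35 and 0.47 log2.

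**Figure D5:**
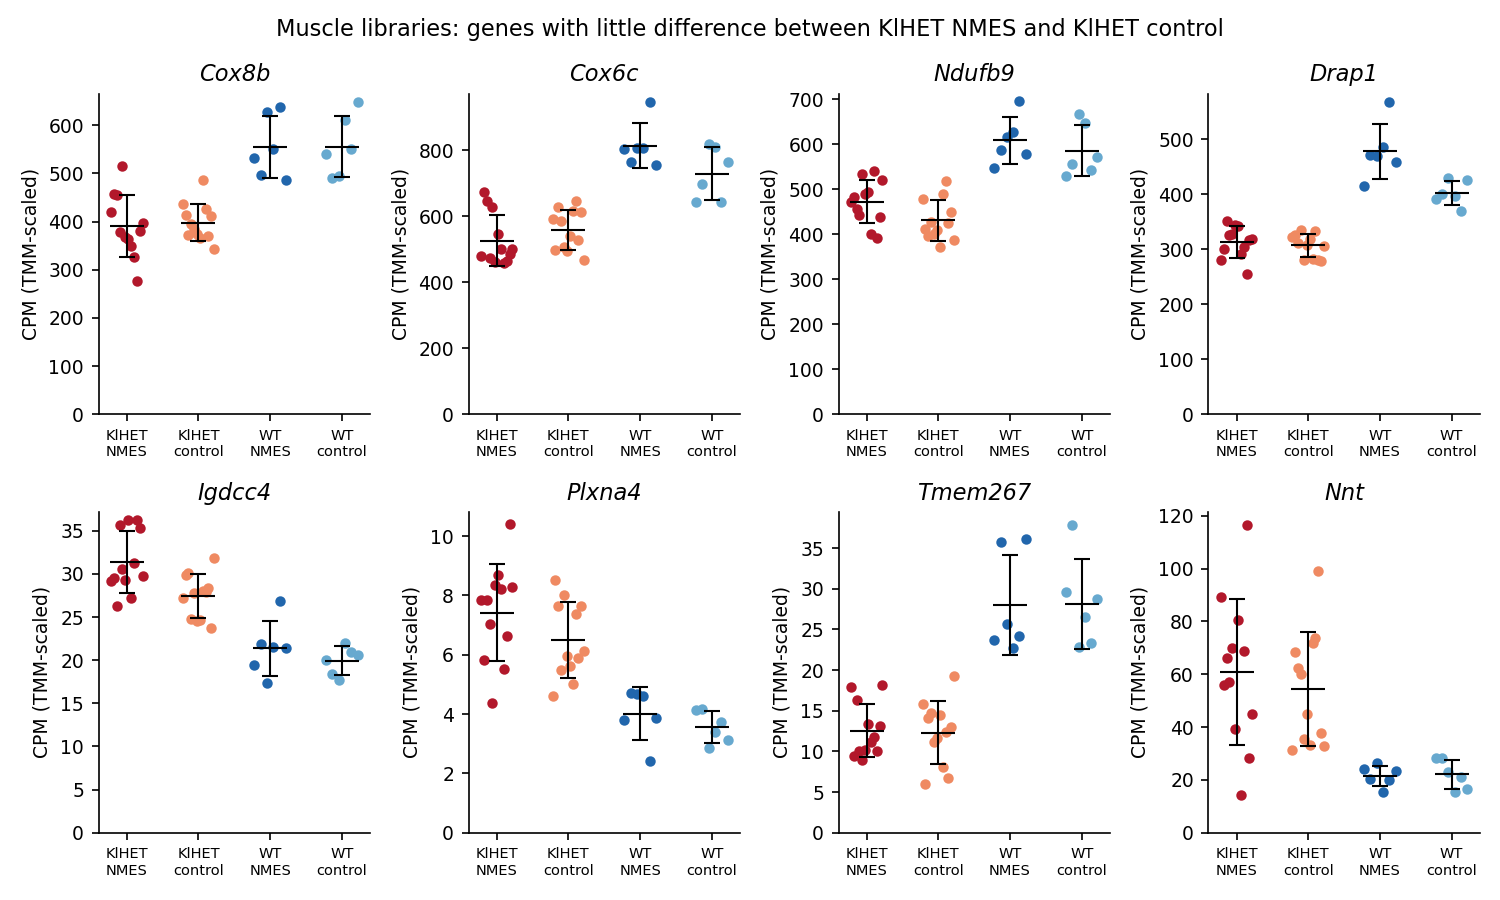
TMM-scaled CPM of 8 genes that differed little between KlHET NMES and KlHET control mice, on linear axes from 0 (points, single libraries; bars, mean and SD). Cox8b, Cox6c, Ndufb9, Drap1 and Tmem267 are lower and Igdcc4, Plxna4 and Nnt higher in both KlHET groups than in WT control, with medians for Tmem267 of 11.5 and 12.7 CPM against 27.6 CPM.

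Some of these genes lay close together, in windows chosen after their values were seen. Of 13 tested genes within 1 Mb on either side of Nnt on chromosome 13, 3 passed between KlHET NMES and WT control mice (23.1%, against 6.4% of all tested genes), namely Nnt, Tmem267 and the chemokine Ccl28, which was 0.90 log2 lower. Within the same distance of Tmem181b-ps on chromosome 17, 6 of 19 passed (31.6%): Tmem181b-ps, Tmem181a, Dynlt1b, Tagap1, Dynlt1a and Rnaset2b. Tmem181b-ps and Tmem181a share sequence, so their calls are not independent. Within 10 Mb on either side of Kl on chromosome 5, 10 of 79 passed (12.7%). Nnt and Tmem181b-ps set their windows and are themselves among the genes counted there. For KlHET control against the same WT controls the windows held 4 of 13 (30.8%), 6 of 19 (31.6%) and 11 of 79 (13.9%), and between the KlHET groups 0, 0 and 1 (1.27%). Of 9 tested genes known to differ among mouse strains or substrains, 2 passed for KlHET NMES, Nnt and Wdfy1, an endosomal adaptor at 6.81 to 29.7 CPM (median 16.4) against 5.25 to 9.34 CPM (median 8.02) in WT control libraries. The part of strain background in these differences was not tested.

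Markers of other cells moved with the comparison in a few cases, and in bulk muscle fewer cells of a type and less RNA per cell cannot be told apart. Of 25 adipocyte markers, 4 were higher in KlHET NMES than in WT control mice and none lower (median 0.61 log2), none passed for KlHET control (median 0.26 log2) and 1, the lipase gene Pnpla2, passed between the KlHET groups (median 0.36 log2). The 4 were the lipid synthesis genes Fasn, Scd1, Elovl6 and Agpat2. Fasn, the fatty acid synthase, ran from 7.37 to 90.8 CPM (median 22.8) against 3.75 to 13.2 CPM (median 8.46) in WT control libraries (1.40 ± 0.38 log2, SE, adjusted p = 0.0251), with 8 of 12 above every WT control. Without WT control replicate 3 none of the 25 passed, and Fasn had an adjusted p of 0.0991 (0.000963 to 0.201 over all alternatives). The summed adipocyte markers ran from 2251 to 3391 CPM in KlHET NMES and from 2125 to 2916 CPM in WT control libraries. None passed among 24 macrophage markers (median 0.13 log2), 16 fibro-adipogenic progenitor and fibroblast markers (median -0.04 log2), 13 tenocyte markers (median 0.27 log2), 14 Schwann cell and myelin markers (median 0.38 log2), 14 slow fibre markers (median 0.42 log2) and 8 blood cell markers (median -0.06 log2). Among 28 endothelial markers 1 was higher, Plvap of fenestrated vessels, against 3.21% of all tested genes. The summed Schwann cell and myelin markers spanned 113.9 to 735.5 CPM in KlHET NMES against 143.1 to 321.6 CPM in WT control libraries, and the macrophage markers 58.2 to 356.8 CPM against 76.8 to 154.3 CPM, wider on both sides. The part of other cell types in the results above was not tested beyond a fit that took the adipocyte and slow fibre scores as terms, which called 785 genes.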

How the data were processed

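Muscle RNA was sequenced by the study from total RNA libraries with paired reads. The deposited CPM values, 1 column per library, were made by the authors with Rsubread (genome build mm10), org.Mm.eg.db for gene names and edgeR 4.0.16, according to the submitters' processing notes and the study's methods. The strand of counting was not given in the sources used here. The deposited table also held a log2 average over all libraries and annotation columns, which were not used. Steps of the deposited CPM gave whole reads for 100% of values (tolerance 1e-06). All sample columns carried a sample label (0 did not).

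Groups came from the labels of tissue, genotype and treatment. Recovered reads were scaled by TMM (edgeR 4.0.16), turned into log2(CPM + 0.5) and fitted over all 36 muscle libraries in limma 3.58.1 (R 4.3.3) with Benjamini-Hochberg adjustment at 0.05 over 13505 genes (of 13543 in the table). On that log2 scale the added 0.5 makes changes of low genes look smaller. The unit was CPM and not counts, so edgeR's quasi-likelihood test on recovered reads was an alternative; it called 899 genes for KlHET NMES against WT control, 846 for KlHET control against WT control and 100 between the KlHET groups. Distances were compared over libraries with 100000 permutations, 2-sided (Python 3.11.15, scipy 1.17.1; figures in matplotlib 3.10.9). The fit was tested on simulated data with 200 changed genes.

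Named genes were the 12 of smallest p in each direction for KlHET NMES against WT control with mean log2 CPM above 0, the 6 in each direction of the comparisons with KlHET control, up to 5 called members of each list (2 where none passed), the 2 highest of each marker list and Klotho-related genes. Predicted symbols, Xist and Y-linked genes were left out. Members and lists were chosen with earlier results of these data known. Alternatives were RLE and total-count scaling, no filter, pseudocounts of 0.1 and 2, edgeR, DESeq2 1.42.0, voom, fits of the 2 groups alone, sex or marker scores as covariates and omission of each library. Removal of length trends (97.78% of tested genes had a length), omission of both libraries of low mitochondrial share, same-sex WT controls and the spread about the own group were chosen after seeing the data. Promoter and gene positions came from RefSeq (GRCm38.p6). Some genes are not reported here. Brain libraries served for Kl only, and plasma small RNA was not analysed here.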

Additional observations from a re-analysis of the deposited data

Results flagged for a closer look

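In 4 of 74 groups of 6 libraries (5.41%), a single library stood apart by Dixon's criterion, of which chance flags about 1 in 20. Abcc1 had 20.71 CPM in WT control replicate 4, below the 26.34 to 29.72 CPM of the other WT control libraries. Cox6c had 947.4 CPM in WT NMES replicate 5, above the 754.5 to 808.1 CPM of the other WT NMES libraries. The same library had the lowest slope of expression on transcript length, -0.146 log2 per doubling, against -0.0911 to -0.06 in the others. The mean level of adipocyte markers was 1.036 log2 above the WT control mean in WT NMES replicate 1, against -0.2944 to 0.1219 in the other WT NMES libraries.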

How the results depend on the processing

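For KlHET NMES against WT control, the 864 calls became 466 without both libraries of low mitochondrial share, 478 with the length trend removed and 208 in a fit of the 2 groups alone, and lay between 693 and 1205 under the other settings. Leaving out 1 library gave 288 to 1225 calls, with 288 without WT control replicate 3, 454 without replicate 4 and 495 without replicate 6. For KlHET control against WT control, the 810 calls became 1541 with scores of adipocyte and slow fibre markers in the fit, 308 without both libraries, 262 with the length trend removed, 1310 in a fit of the 2 groups alone and 1473 with voom, and 121 to 1173 with 1 library left out (121, 470 and 419 without WT control replicates 3, 4 and 6). Between the KlHET groups, the 87 calls became 248 with DESeq2, 262 with the marker scores, 28 in a fit of the 2 groups alone, 148 with sex as covariate and 36 with total-count scaling. With 1 library left out they ran from 42 to 153, and moved by over 1.5 times without KlHET NMES replicate 6 (53) or 8 (153) and without KlHET control replicate 3 (55), 4 (50), 7 (49), 8 (53), 9 (143), 10 (56), 11 (55) or 12 (42). The distance difference of 0.0446 was 0.0243 as a median absolute difference and 0.00375 against the WT NMES mean, and 0.0368 to 0.0520 with 1 library left out. The cause of these shifts was not tested. Single genes kept their direction and side of the threshold in 2026 cases apart from omitted libraries, lost the call in 227 and gained it in 24. With 1 library left out they kept it in 2914 cases, lost it in 304 and gained it in 22. No called result reversed. No paired analysis was made, because the groups compared held different mice. Depth of 14.84 to 24.45 M reads limits genes of a few CPM, such as Ccl28.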

Other observations

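Several groups outside the comparisons above had few calls between KlHET NMES and WT control mice. Over all tested genes, 3.21% were higher and 3.18% lower in that comparison. Of the 12 tested members of the list Klotho, FGF receptors and calcium-phosphate genes, 2 were higher: Fgfr1, a receptor for fibroblast growth factors, at 39.4 to 67.03 CPM (median 54.6) in KlHET NMES and 35.4 to 49.8 CPM (median 38.1) in WT control libraries (0.41 ± 0.09 log2, SE, adjusted p = 0.00563), and Slc20a2, a phosphate transporter, at 71.4 to 115.9 CPM (median 92.0) against 60.9 to 80.4 CPM (median 74.3) (0.37 ± 0.10 log2, SE, adjusted p = 0.0236). Neither passed between the KlHET groups (adjusted p = 0.541 and 0.674). Among 33 antioxidant and glutathione enzymes, Nnt was higher and 4 peroxide-reducing enzymes, Prdx1, Prdx2, Prdx3 and Gpx4, were lower (median -0.09 log2). Of the 31 alternatives, Prdx1 passed under all, while Prdx2 lost the call under 14, Prdx3 under 15 and Gpx4 under 19, and 1 of the 33 antioxidant and glutathione enzymes was lower with the length trend removed. Of 78 cytosolic ribosomal proteins 4 were lower (median -0.17 log2) and of 31 proteasome subunits 2 (median -0.14 log2).

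On chromosome 15, 11 of 33 tested genes in the 10 Mb from Rpl30 onward passed between KlHET NMES and WT control mice (33.3%, against 6.4% of all tested genes), 3 higher and 8 lower, among them Cox6c. In the same window 2 of 33 (6.06%) passed for KlHET control against WT control and none between the KlHET groups. The window was chosen after the values were seen, and Rpl30, which sets it, is counted among the genes that passed against WT control.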
